A study of Mus musculus with 26 samples.

Results

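Of the 10104 transcripts listed for oligodendrocyte progenitor cells (OPCs) or oligodendrocytes (OLs), 47 belonged to DNA repair genes and are described here. A rule on the symbols picked them out. The symbols begin with Fanc, Rad, Xrcc, Ercc or Parp and go on with a letter (Fanc) or a number (the others), or are Brca1, Brca2, Atm or Atr, or belong to the Mlh and Msh mismatch repair series. The authors listed a transcript for a cell type when its labelled RNA reached at least 1 FPKM (fragments counted per kilobase of a transcript, relative to the mapped reads of its library) before the chase. In OPCs 37 of the 47 genes were listed, among 8530 transcripts, in OLs 40 were listed, among 9751, and 30 were listed for both, among 8177.

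Cells took up the uridine analogue 5-ethynyluridine for 24 h, the analogue was replaced by uridine, and the RNA that carried it was pulled down and sequenced at 0, 1, 2, 4 and 6 h of this chase. All cells were of strain 129S/SvEv. The OPCs were derived from epiblast stem cells and grown with bFGF and PDGFA (3 replicates), and the OLs were differentiated from such OPCs with thyroid hormone T3, noggin, IGF-1, cyclic AMP and NT3, and were labelled from 40 h of differentiation (2 replicates). The study calls these biological replicates and ties both OL replicates to OPC replicates, but the sources used here do not say which numbers belong together, so the tests treated the replicates as unpaired. The OL cultures keep some undifferentiated progenitors according to the study, and in such bulk samples a lower proportion of cells of a type and less RNA per cell cannot be told apart.

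The defining markers set the cell types apart in part. All 10 OL markers were listed for OLs, where their summed 0 h level was 3108 to 6652 FPKM, and 3 of 10 were listed for OPCs, at 39.2 to 57.5 FPKM. All 7 OPC markers (Pdgfra, Cspg4, Ptprz1, Gpr17, Olig1, Olig2 and Sox10) were listed for both, at 1536 to 1696 FPKM in OPCs and 1285 to 1494 FPKM in OLs. The study uses OLIG2 as a marker of both cell types, so this sum is not a measure of progenitors alone. The 7 markers of dividing cells summed to 636.5 to 703.5 FPKM in OPCs, and the 6 of them listed for OLs, all but Cdk1, to 86.4 to 177.6 FPKM. Of 6 astrocyte markers 3 were listed for OPCs, at 242.4 to 290.6 FPKM, and 5 for OLs, at 221.5 to 448.3 FPKM. Of 5 neuronal markers 1 was listed for OPCs, at 13.3 to 17.4 FPKM, and 2 for OLs, at 25.9 to 27.7 FPKM. No microglial or pluripotency marker of the 4 in each list was listed for either. The part of the other cell types in the results was not tested.

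DNA is damaged by light, chemicals, oxygen and replication itself, and each kind of lesion has its own repair route. Nucleotide excision repair cuts out bulky lesions, mismatch repair corrects copying errors, the Fanconi anaemia proteins free strands that are cross-linked to each other, and breaks through both strands are either rejoined directly or copied from the sister DNA by homologous recombination. Homologous recombination needs the sister copy that replication makes, so many of its genes are known to be read mainly in dividing cells, whereas end joining, excision repair and the sensing of strand breaks also serve cells that have left the cell cycle.

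Which genes were listed for 1 cell type alone followed their roles only in part. Of all 10104 transcripts, 8530 were listed for OPCs, 9751 for OLs and 8177 for both. Listing for OLs alone was thus the more common case among all transcripts too. The 7 genes listed for OPCs alone included the homologous recombination genes Rad51ap1 and Rad51c, the DNA translocase Rad54l, the Fanconi anaemia pair Fancd2 and Fanci, which clamp together onto cross-linked DNA, and Parp12, an interferon-inducible ADP-ribosyltransferase. Fancd2 had 7.51, 11.1 and 7.82 FPKM at 0 h in OPC replicates 1, 2 and 3, and Rad54l had 9.25, 16.4 and 17.98 FPKM. These values lay well above the 1 FPKM limit in every OPC replicate. Fanci, Rad51ap1, Rad51c and Parp12 had mean levels of 9.38, 10.1, 2.23 and 1.89 FPKM, so the last pair lay close to the limit.

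The 10 genes listed for OLs alone were the excision repair nuclease subunit Ercc4 and the repair helicase Ercc6, the end-joining genes Xrcc4 and Xrcc5, the checkpoint clamp gene Rad9a and its loader Rad17, the recombination gene Xrcc3, the mismatch repair gene Mlh3, the ADP-ribosyltransferase Parp4 of vault particles, and Ercc6l2. Xrcc4, the scaffold of the end-joining ligase, had 14.6 and 15.7 FPKM in OL replicates 1 and 2. Ercc4 had 9.69 and 16.3 FPKM, and Rad17 had 8.35 and 12.4 FPKM. Xrcc5, which codes for the Ku80 subunit, had 5.96 and 2.45 FPKM, while its partner Xrcc6 (Ku70) was listed for both cell types at higher levels. The other 6 had means of 1.87 to 7.41 FPKM. A gene that is not listed for a cell type may have had any level under the limit in 1 or more of its libraries, or 0 at both 1 h and 2 h, which the authors also left out, so no fold was computed for these genes.

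**Figure D1:**
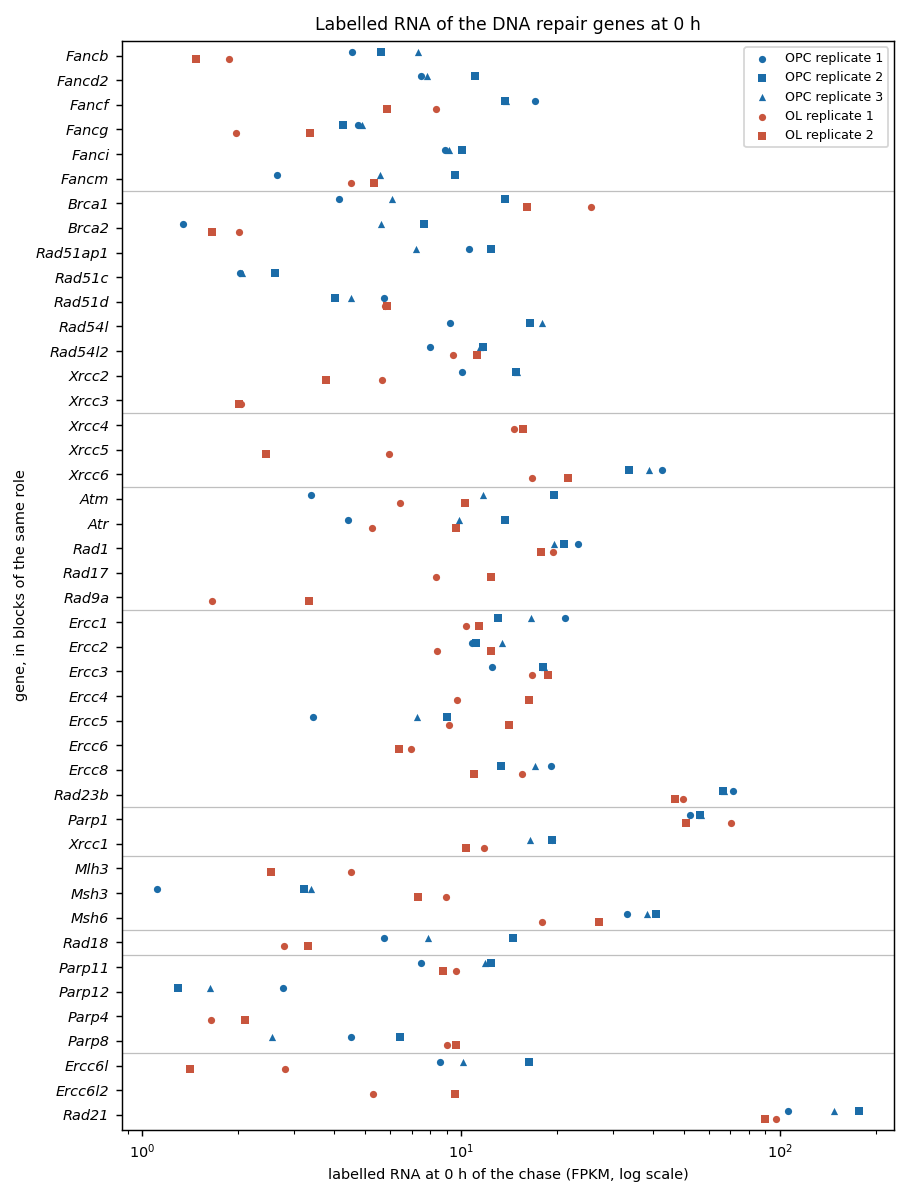
Labelled RNA at 0 h of the chase for 44 of the 47 DNA repair genes, in FPKM on a log axis, with 1 point for each replicate (blue, OPC; red, OL) and lines between groups of genes with a shared role. Rad21, Rad23b and Parp1 lie to the right in both cell types, and rows with points of 1 colour are genes listed for 1 cell type alone.

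Labelled RNA at 0 h, after 24 h of uptake, was compared with limma on log2(FPKM + 1) across all 8177 shared transcripts with Benjamini-Hochberg adjustment. Of the 30 genes tested, 7 were lower in OLs, which is 23.3% beside 17.5% of all transcripts tested, and 2 were higher, which is 6.67% beside 14.1%. The study states that the FPKM values of every time point were scaled to the spike-ins (labelled RNA of known amount added to each sample). The deposited 0 h values carry more decimals than the later ones, and whether they had been scaled was not tested. With each library centred on its median the same 9 genes passed. The median difference (OL minus OPC) was -0.26 over the 30 genes and -0.01 over all transcripts. Without OPC replicate 1 these medians were -0.47 and -0.03, and without OL replicate 2 they were -0.44 and -0.07. In 13 genes (43.3%) both OL values lay below all 3 OPC values, as in 31.4% of all transcripts, and in 5 (16.7%) both lay above, as in 28% of all. The members' shares differ from these backgrounds by a few genes each.

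Among the Fanconi anaemia genes, Fancb and Fancf, both subunits of the core ubiquitin ligase complex, were lower in OLs. Fancb (chromosome X, 164980592 to 164997269, + strand, 9 exons) had 4.53, 5.62 and 7.34 FPKM in OPC replicates 1 to 3 and 1.87 and 1.47 FPKM in OL replicates 1 and 2. Its values did not overlap between the groups, and the difference was -1.34 ± 0.30 (SE, log2(FPKM + 1), limma adjusted p = 0.00917). Fancf had 17.1, 13.8 and 13.8 FPKM in OPCs and 8.33 and 5.84 FPKM in OLs, a difference of -0.99 ± 0.28 (limma adjusted p = 0.0242). Fancg, another core subunit, went from a mean of 4.63 ± 0.32 (SD, n = 3) to 2.66 ± 0.99 FPKM (SD, n = 2) and did not pass (limma adjusted p = 0.123). Fancm, the translocase that recruits the core complex, had 2.65, 9.54 and 5.56 FPKM against 4.53 and 5.33 FPKM, with the OL values inside the OPC range (limma adjusted p = 0.885).

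The homologous recombination genes listed for both cell types moved in different directions. Brca1, which codes for a ubiquitin ligase that promotes the resection of broken ends, had 4.13, 13.7 and 6.08 FPKM in OPC replicates 1 to 3 and 25.6 and 16.0 FPKM in OL replicates 1 and 2. Both OL values were above all OPC values, and the difference was 1.39 ± 0.43 (limma adjusted p = 0.0364). Brca2, a mediator of homologous recombination, had 1.35, 7.64 and 5.62 FPKM in OPCs and 2.01 and 1.66 FPKM in OLs. Here OPC replicate 1 lay under both OL values, and the difference of -0.85 ± 0.50 did not pass (limma adjusted p = 0.216). Without OPC replicate 1 it was -1.42 ± 0.32 and passed (limma adjusted p = 0.00487). Xrcc2, another gene of this route, was lower in OLs, with 10.1, 14.9 and 14.9 FPKM against 5.67 and 3.77 FPKM (-1.32 ± 0.31, limma adjusted p = 0.0104). Rad54l2, which the name rule matched and which was counted in this role, had means of 10.4 ± 2.1 (SD, n = 3) and 10.3 ± 1.29 FPKM (SD, n = 2). Whether it acts in this route was not checked here.

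In end joining, Xrcc6 (chromosome 15, 82016369 to 82040085, + strand, 13 exons) was lower in OLs. It had 42.6, 33.7 and 38.9 FPKM in OPCs and 16.7 and 21.6 FPKM in OLs, with no overlap (-0.97 ± 0.22, limma adjusted p = 0.00904). It was the most abundant of the end-joining genes in both cell types.

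The damage kinases had no called difference at 0 h. Atm, the kinase that answers breaks through both strands, had 3.39, 19.6 and 11.7 FPKM in OPCs and 6.42 and 10.3 FPKM in OLs. Atr, the kinase that answers stretches of unpaired strand, had 4.41, 13.7 and 9.86 FPKM against 5.26 and 9.67 FPKM. For both kinases the OL values lay between the OPC values, and their limma adjusted p-values were 0.816 and 0.729. Rad1, a subunit of the checkpoint clamp and the most abundant gene of this role, had 23.2, 21.1 and 19.5 FPKM against 19.4 and 17.8 FPKM (limma adjusted p = 0.559).

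None of the 7 excision repair genes tested passed at 0 h by limma, and Rad23b was the 1 of them with an unadjusted p under 0.05. Rad23b, which stabilises the lesion sensor of excision repair and was the most abundant gene of the role, had 71.5, 66.5 and 66.8 FPKM against 49.8 and 47.0 FPKM, a difference of -0.49 ± 0.17 (limma adjusted p = 0.0545). Ercc5, the nuclease that cuts on the 3′ side of the lesion, had 3.43, 9.01 and 7.27 FPKM against 9.14 and 14.1 FPKM (limma adjusted p = 0.147). Parp1, the main sensor of strand breaks, had 52.3, 56.1 and 56.7 FPKM against 70.2 and 50.6 FPKM (limma adjusted p = 0.686), and its scaffold partner Xrcc1 had 19.3, 19.2 and 16.4 FPKM against 11.8 and 10.3 FPKM (limma adjusted p = 0.0583).

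In mismatch repair 2 genes of lesion recognition changed in opposite directions. Msh6, whose protein reads base mismatches, had 33.0, 40.8 and 38.2 FPKM in OPCs and 17.96 and 27.2 FPKM in OLs (-0.73 ± 0.23, limma adjusted p = 0.0406). With the replicate number as a block, Msh6 did not pass (-0.71, limma adjusted p = 0.0904). Msh3 (chromosome 13, 92211872 to 92354995, - strand, 24 exons), whose protein reads longer loops, had 1.11, 3.21 and 3.38 FPKM in OPCs and 8.97 and 7.34 FPKM in OLs (1.43 ± 0.37, limma adjusted p = 0.0175). Neither gene's values overlapped between the groups. Per length of transcript, Msh6 was thus far above Msh3 in OPCs, at means of 37.4 and 2.57 FPKM, and less so in OLs, at 22.6 and 8.16 FPKM.

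Rad18, the ubiquitin ligase that starts translesion synthesis, was lower in OLs, with 5.73, 14.6 and 7.89 FPKM against 2.79 and 3.32 FPKM (-1.27 ± 0.38, limma adjusted p = 0.0293). Ercc6l, which the name rule also matched, codes for a helicase of anaphase chromosome bridges rather than a repair enzyme. It had 8.56, 16.3 and 10.2 FPKM against 2.80 and 1.41 FPKM and the largest difference at 0 h among the 30 genes (-2.02 ± 0.35, limma adjusted p = 0.00276). Rad21, the cohesin subunit and the most abundant of the 47 genes, had 106.3, 177.6 and 147.8 FPKM against 97.3 and 89.8 FPKM (limma adjusted p = 0.0755). Parp8, an ADP-ribosyltransferase, had 4.50, 6.44 and 2.56 FPKM against 9.04 and 9.62 FPKM (limma adjusted p = 0.0602), and Parp11, the most abundant of the other PARP genes in OPCs, had means of 10.6 and 9.19 FPKM.

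**Figure D2:**
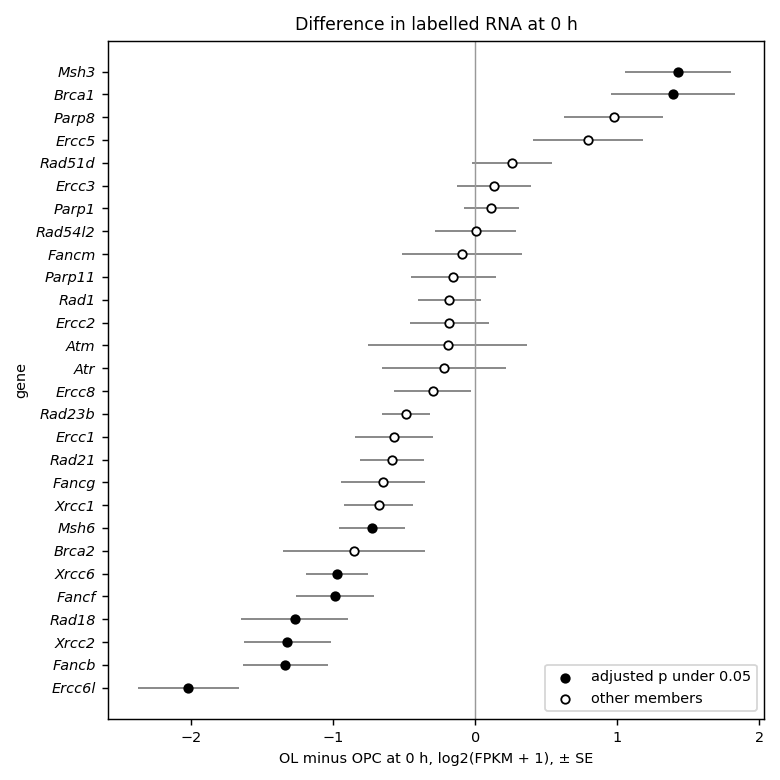
Difference in labelled RNA at 0 h (OL minus OPC, log2(FPKM + 1)) for 28 of the 30 genes listed for both cell types, with limma standard errors as bars and filled points where the adjusted p is under 0.05. Ercc6l is farthest to the left at -2.02, and Msh3 and Brca1 are farthest to the right at 1.43 and 1.39.

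These calls rested on few libraries, as did those of all transcripts, of which 1155 were higher and 1431 lower with all libraries, 483 and 700 without OL replicate 1, 575 and 889 without OL replicate 2, and 679 and 767 without OPC replicate 3. Of the repair genes, without OL replicate 1, 2 of the 9 calls remained (Ercc6l and Xrcc2), without OL replicate 2 there were 3 (Ercc6l, Msh6 and Xrcc6), and without OPC replicate 3 there were 3 (Ercc6l, Msh3 and Xrcc6). Without OPC replicate 1 all 9 passed, and Brca2, Parp8 and Rad21 did so too. Without OPC replicate 2, Msh6 and Rad18 were lost and Parp8 passed. The limma adjusted p of Brca1 was 0.259 without OL replicate 1, 0.0851 without OL replicate 2 and 0.105 without OPC replicate 3.

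OPC replicate 1 stood apart in the longest of these genes. Its 0 h level relative to the geometric mean of OPC replicates 2 and 3 was under -1 on the log2 scale in 7 of the 37 genes (18.9%), as in 8.53% of the 8518 transcripts with coding sequence data. These 7 were Brca2 (log2 ratio -2.28), Atm (-2.16), Msh3 (-1.57), Fancm (-1.46), Atr (-1.40), Ercc5 (-1.24) and Brca1 (-1.14). Brca2, Atm, Atr, Fancm and Brca1 are the 5 with the longest coding sequences among the 37, at 9987, 9189, 7905, 6063 and 5436 nt. Across the 37 genes Spearman's correlation of the log2 ratio was -0.61 with coding length and 0.55 with GC3, the G+C share at the last position of codons. Across all 8518 transcripts it was -0.37 and 0.44. The points share the same 3 libraries, and the part of transcript length or base composition in the levels of OPC replicate 1 was not tested.

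**Figure D3:**
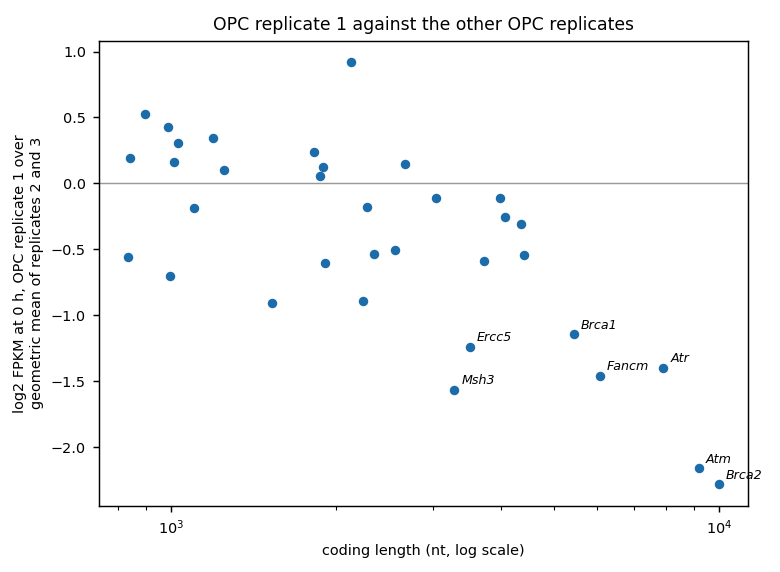
Level at 0 h in OPC replicate 1 relative to the geometric mean of OPC replicates 2 and 3 (log2) against coding length (nt, log axis) for 34 of the 37 genes listed for OPCs, with names where the ratio passes 1 in size. The points fall towards the right, down to Atm at -2.16 and Brca2 at -2.28.

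Over the chase, labelled RNA of nearly all of these genes fell. The slope of log2(FPKM + 1) on chase time was negative and passed limma at an adjusted p under 0.05 in 35 of 37 genes in OPCs (94.6%), beside 81.9% of all OPC transcripts, and in 37 of 40 in OLs (92.5%), beside 68.9% of all OL transcripts. No gene rose in either cell type, beside 5.06% of all transcripts in OPCs and 1.98% in OLs, and none did so at an unadjusted p under 0.05, beside 5.24% and 2.39%. The median slope was -0.44 per h in OPCs and -0.27 per h in OLs, beside -0.38 and -0.20 per h over all transcripts. The genes without a called slope were Parp1 and Parp12 in OPCs and Brca1, Ercc1 and Fancg in OLs. All of these slopes lean on the spike-in scale of each library. With each library centred on its median, 9 of the 37 genes rose and 6 fell in OPCs, beside 39.4% of all OPC transcripts that rose and 13.5% that fell, and 3 of the 40 rose and 4 fell in OLs, beside 31.4% and 13.4%.

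By 6 h the median gene of the set had 10.9%, 3.73% and 7.33% of its 0 h level left in OPC replicates 1 to 3, beside 14.4%, 10.98% and 17.7% for all OPC transcripts, and 20.2% and 18.5% in OL replicates 1 and 2, beside 31.5% and 36.6% for all OL transcripts. In OPC replicates 1 to 3, 11, 16 and 13 of the 37 genes were listed at 0 at 6 h (29.7%, 43.2% and 35.1%, beside 15.7%, 21.6% and 16.4% of all). Of the 40 genes in OLs, 4 and 3 were at 0 (10% and 7.5%, beside 4.08% and 0.79%). The repair genes started lower, with a median 0 h level of 8.91, 13.7 and 11.7 FPKM in OPCs and 8.68 and 9.97 FPKM in OLs, beside 17.4, 19.1, 18.5, 15.6 and 17.0 FPKM for all transcripts. The part of this lower start in the zeros was not tested.

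The difference in slope between cell types was tested as an interaction of cell type and chase time with limma. It was positive, meaning a flatter slope of log2(FPKM + 1) in OLs, in 11 of 30 genes (36.7%), close to the 31.5% of all 8177 transcripts, and negative in 0, beside 0.404% of all, with 1 gene negative at an unadjusted p under 0.05, beside 1.02% of all. The median slope difference was 0.16 per h in the genes and 0.14 per h over all transcripts. The 11 genes were spread over the roles, with 5 in excision repair (Ercc1, Ercc2, Ercc3, Ercc5 and Ercc8) and 1 each in 6 other roles (Fancb, Brca1, Rad1, Xrcc1, Msh6 and Ercc6l). With each library centred on its median, which moved the median of all transcripts to -0.07 per h, none of the 11 passed, beside 4.13% of all transcripts with a flatter slope in OLs, and 3 of the 30 passed in the other direction, beside 22.7% of all. Among these 3 were Msh3 (-0.41 per h) and Parp1 (-0.33 per h). Of the 11 genes 10 kept a positive slope difference, and Ercc6l turned to -0.02 per h, so the size and the calls depend on the scale. The order of the genes within a library does not depend on it.

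Msh6 had the lowest adjusted p among these slope differences. At 4 h it had 12.4%, 3.06% and 8.53% of its 0 h level left in OPC replicates 1 to 3 and 32.9% and 39.9% in OL replicates 1 and 2. By 6 h Msh6 had 7.57%, 5.02% and 3.15% against 22.3% and 17.5%. The groups did not overlap at either time, and the slopes were -0.69 per h in OPCs and -0.33 per h in OLs (difference 0.37 ± 0.10, limma adjusted p = 0.00647). Rad1 was listed at 0 in all 3 OPC replicates at 4 h and 6 h and had 7.70% and 11.1% left at 4 h in the OLs. Its slope of -0.85 per h was the steepest of the 37 OPC genes, and its slope difference was 0.32 ± 0.12 per h (limma adjusted p = 0.0418). Such zeros make the size depend on the pseudocount. With 0.1 in place of 1 the slope difference of Rad1 was 0.89 per h, that of Ercc1 0.90, Xrcc1 0.77, Ercc8 0.68, Ercc5 0.58 and Ercc2 0.51, Fancb did not pass (limma adjusted p = 0.126), and Ercc6l turned to -0.03 (limma adjusted p = 0.828).

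Brca1 had 16.5%, 6.67% and 34.7% left at 4 h in OPC replicates 1 to 3 and 93.0% and 77.1% in OL replicates 1 and 2. By 6 h Brca1 had 28.1%, 4.31% and 19.5% against 59.6% and 54.8%. The OL values were the higher ones at both times, and the slope difference was 0.32 ± 0.10 per h (limma adjusted p = 0.0125). Ercc1, the partner of Ercc4 in the nuclease that cuts on the 5′ side of a lesion, had the largest slope difference (0.49 ± 0.15 per h, limma adjusted p = 0.0124) but uneven courses. OL replicate 2 fell to 3.92% at 2 h and stood at 62.0% at 6 h. Without the 6 h libraries the slope difference of Ercc1 was 0.21 per h and did not pass (limma adjusted p = 0.561).

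The remaining called slope differences were 0.32 per h for Xrcc1, 0.29 for Ercc5, 0.29 for the transcription-coupled repair gene Ercc8, 0.27 and 0.26 for the TFIIH helicases Ercc2 and Ercc3, 0.26 for Fancb and 0.20 for Ercc6l, with limma adjusted p-values from 0.0149 to 0.0496. For Fancb, 0 FPKM was listed at 6 h in all 5 replicates, so its curves end alike. Ercc6l went the other way as a percentage of its 0 h level, with 17.7%, 9.87% and 16.4% left at 6 h in OPC replicates 1 to 3 and 9.56% and 0% in OL replicates 1 and 2. Its positive slope difference was thus found on the log2(FPKM + 1) scale at low OL levels and turned negative with a pseudocount of 0.1. Parp1 had a negative slope difference, with 57.3%, 92.7% and 106.5% left at 6 h in OPCs and 48.8% and 46.5% in OLs, and its value of -0.12 ± 0.06 per h did not pass on the spike-in scale (limma adjusted p = 0.117).

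These calls rested on few libraries too, and so did those of all transcripts, of which 752 passed with a flatter slope in OLs without OL replicate 1 and 945 without OL replicate 2, against 2576. Without OL replicate 1 only Ercc3 of the repair genes passed, without OL replicate 2 only Msh6 passed, without OPC replicate 2 Ercc1, Ercc3 and Msh6 passed with a flatter slope in OLs and Msh3 with a steeper one, and without OPC replicate 3 there were 7 calls. Without OPC replicate 1, 9 of the 11 passed, and Atr and Brca2 did so too. Of all transcripts, 2631, 1687 and 2632 passed with a flatter slope in OLs without OPC replicates 1, 2 and 3 in turn. Their count thus did not fall without OPC replicate 3, where that of the repair genes did.

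**Figure D4:**
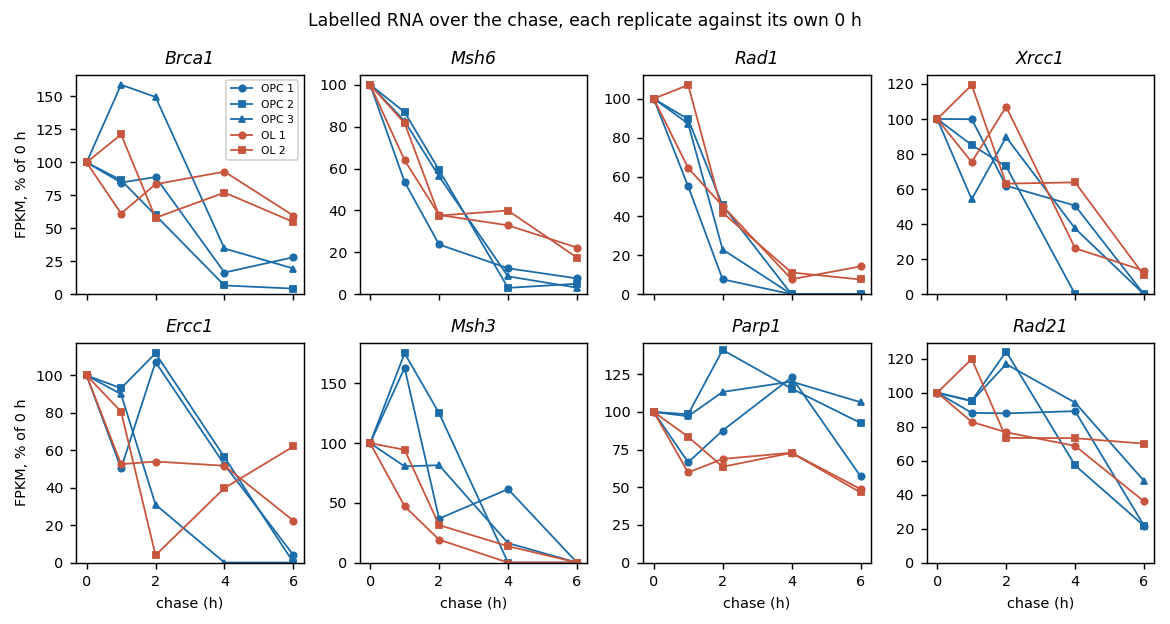
Labelled RNA of 8 genes over the chase, as a percentage of the same replicate's 0 h level, against chase time in h (blue, OPC; red, OL; 1 line for each replicate; the vertical axes start at 0 and differ between panels). Msh6 and Rad1 end lower in the OPCs, Parp1 ends lower in the OLs, and Ercc1 crosses within a cell type.

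The deposited half-lives came from a single exponential fitted by the authors to each replicate, with a ceiling of 6 h. For the 30 genes the half-life had a median of 2.50, 1.96 and 2.00 h in OPC replicates 1 to 3, beside 2.35, 2.08 and 2.83 h for all transcripts, and 2.36 and 2.47 h in OL replicates 1 and 2, beside 4.54 and 4.44 h. Hence the median half-life of all transcripts was longer in both OLs than in every OPC replicate, and that of the repair genes was within the OPC range. The median difference on the log2 scale was 0.11 over the repair genes and 0.37 over all 8112 transcripts tested. The sign of the repair genes' median turned with the data used. It was -0.08 without OL replicate 2 (0.27 over all transcripts) and -0.21 with half-lives refitted without the 6 h libraries (0.19 over all transcripts). With half-lives refitted on 1 shared decay curve, which brings the median of all transcripts to 0, it was -0.49. It was 0.19 without OPC replicate 1, 0.06 without OPC replicate 3 and 0.19 without OL replicate 1. No gene passed limma in either direction, beside 3.39% of all transcripts that were longer and 0.148% that were shorter in OLs. At an unadjusted p under 0.05 there was 1 longer (Brca1), beside 22.2% of all transcripts, and 1 shorter (Msh3), beside 0.801%. In 5 genes (16.7%) both OL half-lives were above all OPC half-lives, as in 35.9% of all transcripts, and in 4 (13.3%) both were below, as in 2.01% of all. The first 5 were Brca1, Ercc3, Ercc8, Rad51d and Rad54l2, and the other 4 were Ercc6l, Msh3, Parp1 and Rad18.

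A percentile rank within each replicate removes a scale that all transcripts of a replicate share. The median percentile of the 30 genes was 52.2, 37.6 and 34.4 in OPC replicates 1 to 3 and 23.5 and 20.8 in OL replicates 1 and 2, so both OL medians were below all OPC medians. Under the 25th percentile there were 10, 10 and 11 of the 30 in the OPCs and 16 and 18 in the OLs. In OPC replicate 2, 25.6% of all transcripts had a half-life fixed near 1.957 h by the time points, as described below. Ercc8 at percentile 22.9 and Atr at 44.4 both had this half-life there. Their order rests on the last digits of the fit, and so do the count and the median of OPC replicate 2 in part. The rank was lower in OLs in 22 genes and higher in 8, with a median difference of -13.5 percentile points beside -2.35 over all transcripts. No single gene passed limma, beside 0.185% of all transcripts that were higher and 0.0986% that were lower. At an unadjusted p under 0.05, 9 of the 30 genes were lower, beside 7.4% of all transcripts, and 1 was higher, beside 10.1%. The median rank difference ranged from -17.5 to -11.2 when each replicate was left out in turn.

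The 3 genes with the highest mean percentile over all replicates were Rad21 (75.8), Parp1 (74.8) and Rad23b (72.9), which were also the 3 with the most labelled RNA at 0 h. Parp1 was at the 6 h ceiling in all 3 OPC replicates and at 5.80 and 5.44 h in the OLs, and its percentile went from 87.8, 87.4 and 84.2 to 56.9 and 57.6 (-29.2 ± 3.81, limma adjusted p = 0.063). This was the lowest adjusted p of the rank test in the set. Rad21 was at 6, 4.96 and 6 h in OPCs and 5.22 and 6 h in OLs. Brca1 (59.2) followed. Brca1 had half-lives of 3.28, 1.96 and 2.62 h in the OPCs and was at the ceiling in both OLs, and its percentile went from 61.4, 28.3 and 46.9 to 78.8 and 80.6 (34.2 ± 10.6, limma adjusted p = 0.208). It was the only 1 of the 10 genes with an unadjusted p under 0.05 that was higher in OLs.

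The 5 lowest were Rad1 (8.73), Fancb (8.74), Fancf (9.61), Xrcc2 (12.2) and Ercc8 (15.3). Rad1 had half-lives of 0.704, 1.76 and 0.94 h in OPCs and 1.58 h in both OLs. Fancb had 1.31, 1.78 and 0.903 h against 0.38 and 1.21 h. Fancf had 0.422, 1.25 and 0.714 h in OPCs but 3.06 and 1.04 h in the OLs, which disagree with each other. The mean percentile that ranked these genes runs over both cell types.

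Other genes with a lower rank in the OLs at an unadjusted p under 0.05 were Atm (from 87.8, 56.8 and 84.2 to 27.5 and 3.37), Rad18 (from 50.1, 39.2 and 65.3 to 1.60 and 8.40), Fancm (from 57.8, 37.4 and 60.5 to 15.6 and 14.98) and Msh3 (from 38.7, 28.3 and 31.1 to 1.41 and 2.48). Their values did not overlap between the cell types. Their limma adjusted p-values were 0.119, 0.1, 0.132 and 0.0793. Xrcc1 and Ercc6l also belonged to them. Atm was at the 6 h ceiling in OPC replicates 1 and 3. Of its 0 h level, 64.7%, 13.8% and 19.1% were left at 6 h in the OPCs and 34.9% and 12.3% in the OLs. These shares overlap, and the slope difference of Atm was -0.03 ± 0.10 per h (limma adjusted p = 0.871). For Msh3, labelled RNA at 0 h was higher in OLs while its half-life, 1.86, 1.96 and 1.96 h in OPCs, was 0.839 and 1.39 h in OLs. For Brca1 both measures were higher in OLs.

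**Figure D5:**
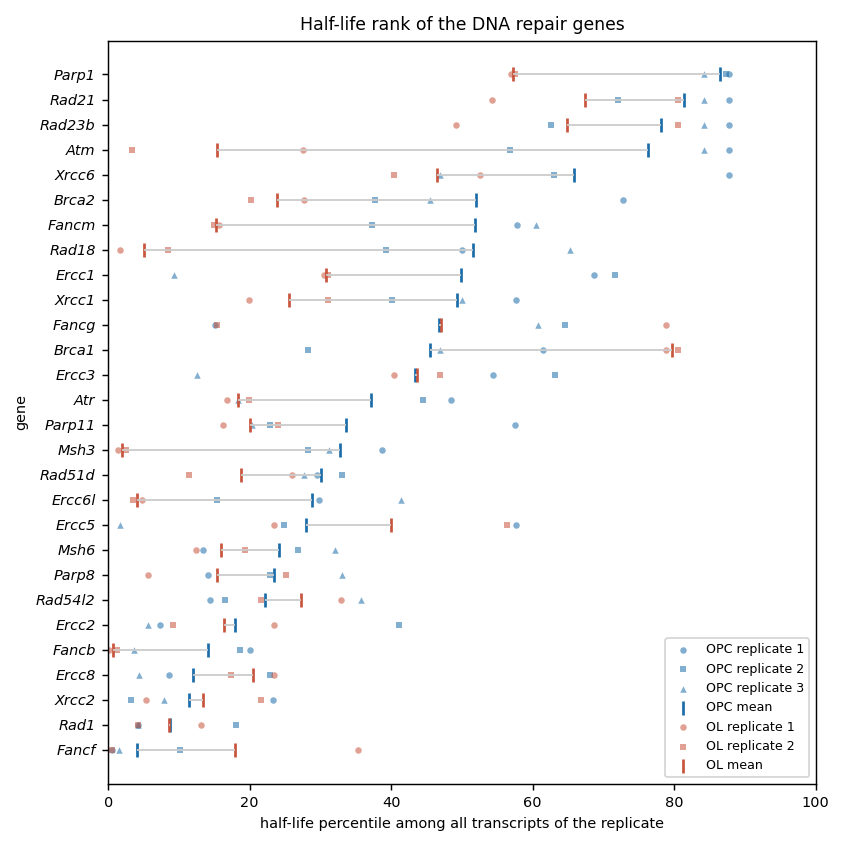
Half-life percentile of 28 of the 30 genes within each replicate, ordered by their OPC mean (blue, OPC; red, OL; points, replicates; bars, means, joined by a grey line). The red bar lies to the left of the blue one in 20 of these 28 genes, with Atm at -60.8 percentile points, and to the right in 8, with Brca1 at 34.2.

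Some of these half-lives were fixed by the time points rather than by a gene's own levels. An absolute-deviation fit with the 1 h and 2 h points above the curve and the 4 h and 6 h points below it has its best half-life at 1.96 h whatever their distance. In OPC replicate 2, 19 of the 37 genes (51.4%) lay within 0.002 h of this value, as did 25.6% of all transcripts, and in OPC replicate 3 it was 6 (16.2%), beside 7.53% of all. No gene did so in OPC replicate 1 or OL replicate 1, and 1 of 40 did in OL replicate 2. The 19 include Brca1, Brca2, Atr, Msh3, Msh6 and Xrcc1. For such genes the value says that labelled RNA stayed above the curve until 2 h and was under it from 4 h on, and equal half-lives do not mean equal courses. Percentile ranks among genes that share the value rest on the last digits of the fit. Those given above for Brca1, Rad18, Fancm and Msh3 in OPC replicate 2 are among them. Other arrangements of the points fix the half-life at 0.704 h or 1.86 h in the same way. Rad1 lay at 0.704 h in OPC replicate 1, Fanci and Msh3 at 1.86 h in OPC replicate 1 and Rad18 at 1.86 h in OL replicate 2. Hence all 3 OPC half-lives of Msh3 were fixed by the time points.

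Sequence features that the name rule did not use differed in their medians between the repair genes and all listed transcripts, with overlap. Their median coding length was 2196 nt beside 1401 nt for all listed transcripts, their 3′ untranslated regions (3′ UTRs) were shorter at 646 nt beside 1096 nt, and their GC3 was 52.1% beside 60.6%. For phenylalanine they used UUU in 54.5% of codons and for lysine AAA in 47.7% (medians over genes), beside 44.4% and 37.5%. Of the 47 genes, 15 had a coding sequence shorter than the median of all transcripts, 14 a longer 3′ UTR and 13 a higher GC3. Brca2 had the lowest GC3 of the set, with 35.5%, and Fancf the highest, with 83.4%. Among the 30 genes Spearman's correlation of GC3 with the mean half-life percentile was -0.08 in OPCs and 0.27 in OLs, beside -0.02 and 0.21 over 8101 transcripts. With UUU bias it was -0.14 and -0.18, beside 0.02 and -0.16, and with coding length 0.23 and -0.02, beside -0.22 and -0.24. The percentiles of a cell type come from the same replicates for all genes.

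Promoters were searched for TTTNNCGC, letters that E2F, the factor that times gene expression to DNA replication, is known to bind. Of the 47 genes 36 were matched to RefSeq promoters (GRCm38.p6, 250 bases before to 50 after the start site, 42 promoters). Both strands were searched. TTTNNCGC occurred in 9 of the 42 promoters (21.4%), beside 5.17% of 32851 promoters of all genes, and in 8 of the 36 genes (22.2%), beside 5.93%. The letters TTTGAA, known as part of the CHR element of mitotic genes, occurred in 2 of 42 promoters (4.76%), beside 17.9%. These backgrounds hold every RefSeq promoter, whether or not its gene was listed for a cell type. The shares among promoters of listed genes were not computed, so these contrasts cannot be read as particular to repair genes. The windows below show the TTTNNCGC matches of Msh6, Xrcc6 and Ercc5, which passed the test of 0 h level or of slope difference, and that of Brca2, on the gene's own strand, with the match in capitals (a match on the other strand reads as its reverse complement).
Brca2, chr5:150522442-150522471 (+): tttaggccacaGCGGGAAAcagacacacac
Msh6, chr17:87975054-87975083 (+): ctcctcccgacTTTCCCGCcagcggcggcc
Xrcc6, chr15:82016203-82016232 (+): cggggacgcacTTTCACGCatgtgcgttcg
Xrcc6, chr15:82016312-82016341 (+): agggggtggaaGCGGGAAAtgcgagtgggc
Ercc5, chr1:44147556-44147585 (+): gtgcaaacactTTTTGCGCctaacagtcag

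Counted from the start site, these matches begin at -168 in Brca2, 16 in Msh6, -155 and -46 in Xrcc6 and -177 in Ercc5. Msh6 and Xrcc6 were lower at 0 h in OLs, and Msh3, whose 2 overlapping matches are not printed here, was higher. Fancb, Fancf and Rad18 were lower and had no match.

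In the 3′ UTRs, TGTANATA, the letters bound by Pumilio proteins, which promote mRNA decay, occurred in 7 of the 47 genes (14.9%), beside 26.5% of 10090 transcripts. The AU-rich letters TATTTAT occurred in 13 (27.7%), beside 29.7%. Rad1 and Rad21 are shown because they hold the lowest and the highest mean half-life percentile of the set and both carry TGTANATA, and Fancd2 because it carries 3. The match is in capitals, on the gene's strand, with GRCm38 coordinates.
Rad1, chr15:10493621-10493648 (+): tctgtaaatcTGTAAATAgtttttattt
Rad21, chr15:51962747-51962774 (-): aaaaagacacTGTAGATAattgaatgtt
Fancd2, chr6:113596247-113596274 (+): ataatagcttTGTAAATAaatctgtttc
Fancd2, chr6:113596551-113596578 (+): taaacattttTGTACATAtgtgtatggg
Fancd2, chr6:113596761-113596788 (+): tggctttgtaTGTATATAtagtttttat

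Rad51c, Rad51ap1, Fancm and Ercc3 each carry the letters too. Of the 7 genes listed for OPCs alone, 3 carried TGTANATA, and of the 10 listed for OLs alone, 0 did. Fancd2 had half-lives of 3.05, 2.62 and 4.27 h in the OPC replicates.

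Exons of 18 of the 47 genes overlap an exon of a gene on the opposite strand, and the sources used here do not say whether counting used the strand. Of the Ercc2 transcript 20.8% lies in Klc3, of Fanci 16.4% in Polg, of Msh3 5.9% in such a gene, and for Brca1 there was no overlap.

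Of 110 other genes of DNA repair, 73 were listed for OPCs, 81 for OLs and 68 for both. At 0 h, 18 of the 68 were lower in OLs and 1 was higher (median -0.31), beside 17.5% and 14.1% of all transcripts. The largest falls were in the uracil glycosylase Ung (-2.37 ± 0.33, limma adjusted p = 0.000816), the histone variant gene H2afx, which marks breaks (-2.27 ± 0.23, limma adjusted p = 0.000126), and the exonuclease Exo1 (-2.14 ± 0.32, limma adjusted p = 0.00124). In half-life 2 of the 68 were longer in OLs, beside 3.39% of all transcripts. They were Hus1 (1.44 ± 0.12, limma adjusted p = 0.0323) and Gtf2h3 (1.02 ± 0.10, limma adjusted p = 0.0406). The median rank difference of the 68 was -6.74 with no call. In slope difference 20 of the 68 were positive, close to the 31.5% of all transcripts, and 0 negative, with Nsmce4a (0.60 per h), Xab2 (0.59 per h) and Mus81 (0.56 per h) the largest. Dna2, Polh, Polq, Recql4 and Ube2t were listed for OPCs alone, and 13 genes, among them Mgmt and Polk, for OLs alone.

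Of 38 replication and mitosis genes all were listed for OPCs and 22 for OLs. At 0 h, 19 of the 22 were lower (median -2.54), beside 17.5% of all transcripts, with Plk1 (-3.70), Ccnb1 (-3.47) and Rrm2 (-3.19) the largest. Their median rank difference was -27.4, and Mcm6 (-65.3 ± 3.79, limma adjusted p = 0.049) passed, beside 0.0986% of all transcripts that were lower. In half-life Mcm6 (-1.96 ± 0.20) and Top2a (-1.52 ± 0.11) were shorter in OLs (limma adjusted p = 0.0414 and 0.0274), beside 0.148% of all transcripts. In slope difference 3 of the 22 were positive, led by Aurka (0.55 per h), and 1 was negative, beside 31.5% and 0.404% of all transcripts. The medians of the repair genes lay between those of this list and of all transcripts at 0 h and in rank, and the share of dividing cells in their values was not tested.

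Of 19 genes of the p53 response, which damage switches on, 13 were listed for both. At 0 h Rrm2b (1.71 ± 0.38, limma adjusted p = 0.00886), Mdm2 (1.09 ± 0.25, limma adjusted p = 0.00916) and 1 more were higher in OLs. Trp53 itself was lower (-0.84 ± 0.17, limma adjusted p = 0.00497), and the median was 0.29. Of all transcripts 14.1% were higher and 17.5% lower. No gene passed in half-life or in rank, and 4 of the 13 had a positive slope difference, close to the 31.5% of all transcripts, with Cdkn1a, the cyclin kinase inhibitor, the largest (0.61 ± 0.07 per h, limma adjusted p = 1.31e-05). Chek1 and Chek2, the kinases that act after Atr and Atm, were listed for OPCs alone, and Cdc25a, Gadd45a and Pmaip1 for OLs alone.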

How the data were processed

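Labelled RNA was measured in 3 OPC and 2 OL replicates at 5 chase times (15 and 10 libraries). The 1 OPC sample processed without biotin was not analysed here. Adapters had been clipped by the authors (fastx_clipper), who mapped the reads on GRCm38 using HISAT2 2.1.0 and made FPKM tables with StringTie 1.3.5 and ballgown over GENCODE vM9. The deposited FPKM values had been scaled by the authors to labelled spike-in RNA, so an error in 1 library's scale moves all its transcripts together. The study states that this scaling was applied to every time point. The 0 h columns carry more decimals than the others, and whether they had been scaled too was not tested. A 0 h difference may thus be relative to the library or to the spike-ins. The authors kept transcripts of at least 1 FPKM at 0 h. Deposited half-lives (h) were fitted by least absolute deviations by the authors, who capped them at about 6 h, and capped values slightly above 6 h were set to 6 h here. Read counts behind the FPKM values are unknown, so depth and counting error cannot be given, and precision rests on the replicates.

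Half-lives (log2), percentile ranks, log2(FPKM + 1) at 0 h, slopes on chase time and their difference between cell types were fitted over all transcripts with limma 3.58.1 in R 4.3.3, with Benjamini-Hochberg adjustment and a threshold of 0.05. Each slope fit had a term for each time course and treats the libraries of a course as separate measurements. Refitted half-lives fell within 0.01 h of the deposited ones for 98.2 to 99.9% of transcripts. The fits were tested on simulated data. Alternatives were each replicate left out, other pseudocounts, filters, scalings and half-life refits.

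Members and gene lists were chosen with earlier results of these data known. The genes named with values were a fixed few (Brca1, Brca2, Atm, Atr, Parp1, Xrcc5 and others), every member past the threshold in a comparison of cell types, the 5 highest and the 5 lowest in half-life percentile, the most abundant of each role, and those listed for 1 cell type. Other members were added after their values were seen, to complete a role or a count. From the other lists, the 3 largest changes past the threshold were named, and further names there were chosen after their values were seen. Exons, coding sequences and 3′ UTRs came from GENCODE M21 (GRCm38, all 47 genes matched by transcript identifier) and promoters from RefSeq (GRCm38.p6). The promoters of 11 genes, among them Ercc3, Ercc6l, Fancd2, Rad21, Rad51d, Rad54l2, Rad9a and Xrcc2, were not used here. A few genes enter the counts but are not reported here by name or in the figures.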

Additional observations from a re-analysis of the deposited data

Results flagged for a closer look

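The fall of labelled RNA over the chase differed between OPCs and OLs, by the interaction of cell type and chase time in limma (adjusted p under 0.05), in 11 genes. The slope differences (OL minus OPC, log2(FPKM + 1) per h) were 0.49 for Ercc1, 0.37 for Msh6, 0.32 for Rad1, 0.32 for Brca1, 0.32 for Xrcc1, 0.29 for Ercc5, 0.29 for Ercc8, 0.27 for Ercc2, 0.26 for Ercc3, 0.26 for Fancb and 0.20 for Ercc6l. All are positive on this scale, as were 2576 calls among all transcripts beside 33 negative ones, and none of the 11 passed with each library centred on its median. The sign for Ercc6l turned with a pseudocount of 0.1 (-0.03) and with centred libraries (-0.02), and both of its OL half-lives lay below all 3 OPC half-lives.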

How the results depend on the processing

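Counts of repair genes past the threshold moved with the libraries used. When each replicate was left out in turn, half-life calls ranged from 0 to 1 longer and from 0 to 1 shorter in OLs, level calls at 0 h from 0 to 3 higher and from 2 to 9 lower, and slope differences from 1 to 11 slower and from 0 to 1 faster in OLs. Leaving out an OL replicate leaves 1 OL sample, which is then assumed to vary like the others. Half-lives refitted without the 6 h libraries gave 2 shorter genes (Atm and Parp1; 12 of all 8112 transcripts), and those refitted on 1 shared decay curve gave 1 (Parp1; 195 of all). With a mean FPKM at 0 h of at least 5, 1 gene was higher and 6 were lower at 0 h, beside 14.6% and 18.9% of all transcripts kept. With each library centred on its median, 9 genes rose and 6 fell in OPCs (39.4% and 13.5% of all transcripts), 3 rose and 4 fell in OLs (31.4% and 13.4%), and 0 slope differences were slower and 3 faster in OLs (4.13% and 22.7%). Without the 6 h libraries there were 6 slower ones, beside 1579 of all 8177. Ercc6l's slope difference reversed to -0.0341 with a pseudocount of 0.1 and to -0.0152 with centred libraries. Centring the half-lives of each replicate on their median moved the median difference of the 30 genes from 0.11 to -0.79, beside -0.53 for all transcripts. The causes were not tested.

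Ercc6l at 0 h kept its call in all 11 alternatives, and each other call at 0 h was lost in at least 1. With a replicate block, 2 genes were higher and 6 lower at 0 h, beside 13.2% and 14.4% of all transcripts. Msh6 was the call lost (limma adjusted p = 0.0904). In half-life and in rank this block left no call for any of the 8112 transcripts, so the absence of repair genes there says nothing about them. Deviations of same-numbered OPC and OL samples correlated at -0.0016 and -0.10 for half-lives and at 0.059 and 0.010 at 0 h, and the study matches the OL to OPC replicates without giving numbers, so numbers were not taken as pairs. Among slope differences, fitting no replicate block left 8 of the 11.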
